A study of Mus musculus with 6 samples.

Results

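The genes described here are Myc and 9 other regulators of the G1 phase of the cell cycle: Mycn, Ccnd1, Ccnd2, Ccnd3, Cdk4, Cdk6, Cdkn1b, Rb1 and E2f1. They were taken by gene name from the abundance table, where all 10 were found among 37315 genes. The table of allelic counts holds 19402 genes and 7 of the 10. Myc, Ccnd3 and Cdkn1b were not analysed here by allele. RNA was sequenced from 3 clonal lines of immortalised mouse B cells, named Abl.2, Abl.3 and Abl.4. Every line has the strain label 129S1/SvImJ x CAST/EiJ F1, so all are hybrids of the same cross between inbred strains. Female is the label of Abl.2 and Abl.4, and male that of Abl.3. The 6 libraries are controls throughout: cells were kept in growth medium with 1% DMSO, a solvent, and live cells were taken on day 2. Each line has 2 libraries, which differ by library preparation, so the errors below hold the spread of library making and of counting alone, and a line stands for 1 clone. The age of the animals and the agent used for immortalisation are not given in the sources used here. The study's title concerns monoallelic expression and the part DNA methylation plays in setting allelic levels, and with control libraries alone the comparisons are those between clones and between alleles.

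The passage from G1 to S phase is gated by the retinoblastoma protein. D-type cyclins activate the kinases CDK4 and CDK6, which phosphorylate RB1 and so free E2F factors to transcribe genes of DNA replication, while the inhibitor p27 (the product of Cdkn1b) restrains cyclin-dependent kinases. MYC is a transcription factor of growth and ribosome production that binds DNA together with MAX, and the proliferation of pre-B cells depends on it and on cyclin D3.

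The cells carried the marker genes of the B lineage. All 9 B lineage markers were above 1 TPM in each library (TPM is a transcript abundance scaled to length and to the sum over a library), with a summed level of 17804 to 18436 TPM in Abl.2, 15309 to 16680 TPM in Abl.3 and 17668 to 18009 TPM in Abl.4. Among them Pax5 was at 56.2 and 64.0 TPM in Abl.3, against 156 to 246 TPM in the other lines. The 5 T cell, 4 erythroid and 3 stromal markers were all below 1 TPM in every library. Of 5 myeloid markers, Csf1r, Adgre1 and Mpo were below 1 TPM throughout, while Lyz2 was at 70.8 to 193 TPM and was highest in Abl.2, and Itgam reached 6.89 TPM in Abl.4 against at most 0.97 TPM elsewhere. The summed myeloid markers were at 159 and 193 TPM in Abl.2, 97.2 and 75.0 in Abl.3, and 89.4 and 77.9 in Abl.4, and their part in the results below was not tested. The libraries held between 18362319 and 26881211 allelic counts each, and TPM keep no depth.

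In each line the order of levels was led by Ccnd3, Cdk4 and Myc and closed by Cdkn1b and Ccnd1. Cdk4 stood first in Abl.2, at 1033 ± 5.17 TPM (SD, n = 2), ahead of Ccnd3 at 959 ± 84.2 TPM. Ccnd3 stood first in Abl.3, at 1988 ± 182 TPM, and in Abl.4, at 1307 ± 70.2 TPM. Ccnd2, Mycn, E2f1, Cdk6 and Rb1 lay between 18.7 and 159 TPM as line means. Neighbours in this order were separated library by library, except Rb1 and Cdk6 in Abl.4, whose libraries overlapped. These are levels per length, and in bulk RNA fewer cells with a transcript cannot be told apart from less of it per cell.

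**Figure D1:**
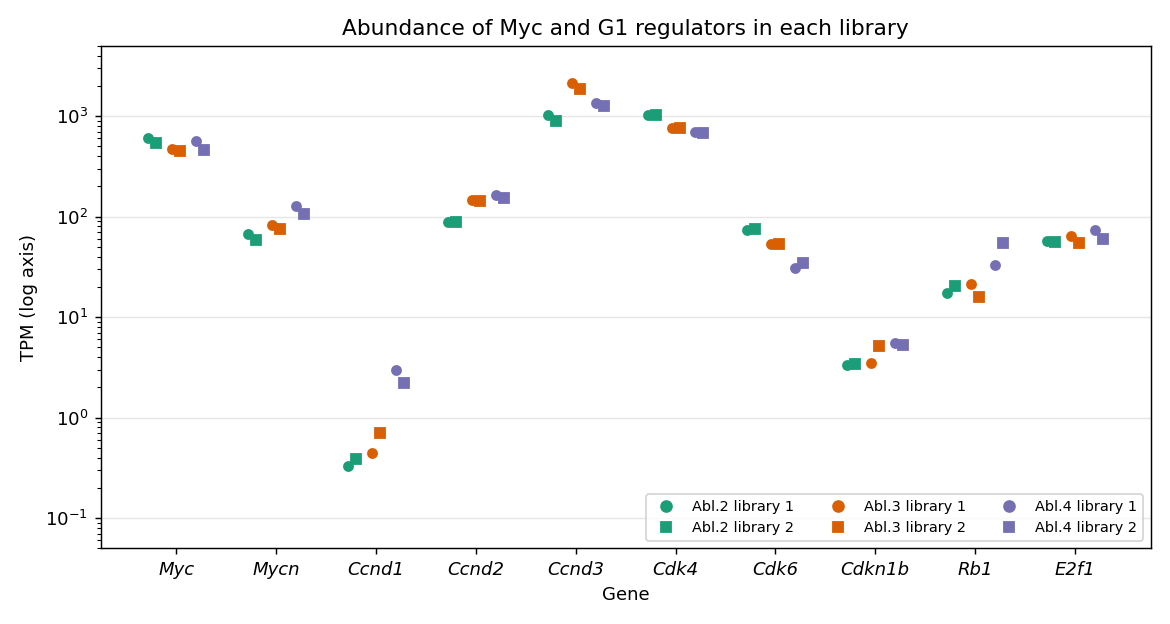
Abundance of the 10 genes in each library, in TPM on a log axis; colours mark the 3 lines and symbols the 2 libraries of a line. Ccnd3 is highest in Abl.3 (1859 and 2116 TPM), Cdk4 and Cdk6 are highest in Abl.2, and Ccnd1 stays below 3 TPM in all libraries.

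Abundance was compared between lines on log2(TPM + 1) with limma over 11003 genes, and a gene was called at a Benjamini-Hochberg adjusted p below 0.05. Ccnd1 passed the filter on low values (a mean of at least 1 TPM) through Abl.4 alone and is left out of the counts that follow, which are over the other 9. Between Abl.2 and Abl.3, 4 of the 9 were called, 2 higher in Abl.2 (Cdk4 and Cdk6) and 2 lower (Ccnd2 and Ccnd3), where the calls in these directions took up 25.9% and 14% of all tested genes. Between Abl.2 and Abl.4, 6 were called, 2 higher in Abl.2 (Cdk4 and Cdk6) and 4 lower (Mycn, Ccnd2, Ccnd3 and Rb1), beside 15% and 18.4% of all genes. Between Abl.3 and Abl.4, 4 were called, 2 higher in Abl.3 (Ccnd3 and Cdk6) and 2 lower (Mycn and Rb1), beside 11.3% and 26.8%. In this last pair, neither Mycn (-0.48) nor Rb1 (-0.94) was called without Abl.3 replicate 2, while Ccnd3 (0.70) and Cdk6 (0.67) were. The pairs share libraries and are not independent of each other. Myc, E2f1 and Cdkn1b were called in no pair.

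The median log2 difference over all genes was 0.10 for Abl.2 minus Abl.3, -0.03 for Abl.2 minus Abl.4 and -0.15 for Abl.3 minus Abl.4. Quantile normalisation moved these medians to 0.00, 0.03 and 0.03, and the share of calls that were higher in the first line went from 65.0% to 51.4%, from 44.9% to 52.8% and from 29.8% to 52.0%. None of the members' calls was lost under it. Relative to the median of all genes, Ccnd3 was at -1.15 for Abl.2 minus Abl.3 and 0.75 for Abl.3 minus Abl.4, Cdk4 at 0.34 and 0.29, and Cdk6 at 0.37 and 0.83. On the same scale Ccnd2 was at -0.79 and 0.01, Mycn at -0.43 and -0.41, and Rb1 at -0.07 and -1.0003.

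**Figure D2:**
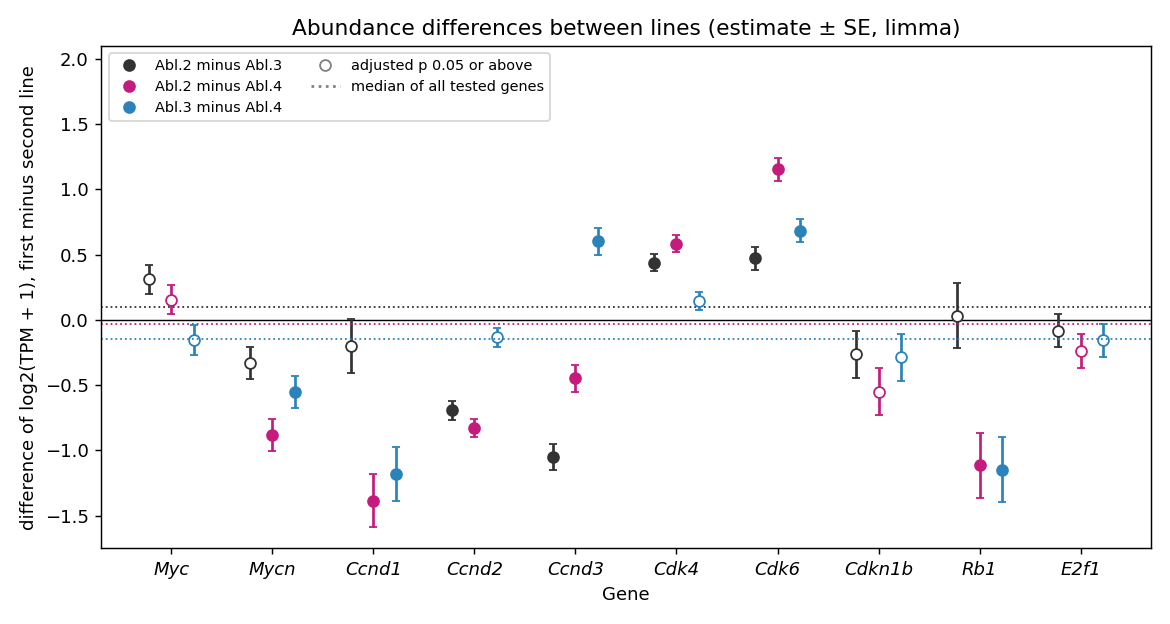
Difference of log2(TPM + 1) between lines for each gene, first minus second line (points: limma estimate; bars: SE; filled: adjusted p below 0.05; dotted lines: median of the 11003 tested genes in that pair). Cdk6 is above 0 in all 3 pairs, Ccnd3 is below 0 for both pairs with Abl.2 and above 0 for Abl.3 minus Abl.4, and Myc lies between -0.15 and 0.31.

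Myc (ENSMUSG00000022346, GRCm38 chromosome 15, 61985391 to 61990374, plus strand) was abundant in all clones, with line means from 460 to 572 TPM. Its libraries were at 602 and 541 TPM in Abl.2, 475 and 446 TPM in Abl.3, and 566 and 463 TPM in Abl.4. Both libraries of Abl.2 were above both of Abl.3, while Abl.4 overlapped each of the others. The difference of Abl.2 minus Abl.3 was 0.31 on the log2 scale with an SE of 0.11 (95% interval 0.04 to 0.58). Its Benjamini-Hochberg adjusted p by limma was 0.071. This pair was near the threshold: the adjusted p was 0.047 after quantile normalisation (log2 difference 0.35), 0.012 with the library number as a block, and 0.037 and 0.036 without Abl.4 replicate 1 or 2. The other pairs differed by 0.16 (95% interval -0.12 to 0.43, Abl.2 minus Abl.4) and -0.15 (95% interval -0.43 to 0.12, Abl.3 minus Abl.4). The 3 genes with the nearest pattern over the 6 libraries, by Euclidean distance of centred log2(TPM + 1), were Aspscr1 at 0.079, Rbm14 at 0.084 and Hip1r at 0.096.

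Mycn (ENSMUSG00000037169; chromosome 12, 12936093 to 12941914, minus strand) encodes N-MYC, a MYC family factor of early lymphoid and neural cells. It was at 67.0 and 58.0 TPM in Abl.2, 82.8 and 74.7 TPM in Abl.3, and 128 and 105 TPM in Abl.4. The lines did not overlap, with Abl.2 lowest and Abl.4 highest. Abl.2 was lower than Abl.4 by a log2 difference of -0.88 (SE 0.13, limma adjusted p = 0.0027), a ratio of mean TPM of 1.86. Abl.3 was lower than Abl.4 at -0.55 (SE 0.13, limma adjusted p = 0.015). That call was lost without Abl.3 replicate 1 (-0.63, adjusted p = 0.053), without Abl.3 replicate 2 (-0.48, adjusted p = 0.094) and without Abl.4 replicate 1 (-0.41, adjusted p = 0.064), with the difference below 0 each time. Abl.2 minus Abl.3 was -0.33 (limma adjusted p = 0.080), and was called after quantile normalisation (-0.42, adjusted p = 0.031), with the library number as a block (adjusted p = 0.0097) and on summed allelic counts with edgeR (-0.43, adjusted p = 0.027). As a share of Myc and Mycn together, Mycn made up 9.85% ± 0.23 (SD, n = 2) in Abl.2, against 14.6% ± 0.36 in Abl.3 and 18.4% ± 0.062 in Abl.4. The sum of both was 634 ± 49.5, 539 ± 26.2 and 631 ± 88.6 TPM in the same order.

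The Mycn promoter window is shown because Mycn is a known target of E2F factors and its levels differed between the lines. It is from RefSeq (GRCm38.p6, chr12:12941787-12942086, minus strand), runs from 250 bases before to 50 after the start site, and has matches to the E2F letters TTTCCCGC, TTTCGCGC, TTTGGCGC or TTTGCCGC, on either strand, in capitals.
Mycn: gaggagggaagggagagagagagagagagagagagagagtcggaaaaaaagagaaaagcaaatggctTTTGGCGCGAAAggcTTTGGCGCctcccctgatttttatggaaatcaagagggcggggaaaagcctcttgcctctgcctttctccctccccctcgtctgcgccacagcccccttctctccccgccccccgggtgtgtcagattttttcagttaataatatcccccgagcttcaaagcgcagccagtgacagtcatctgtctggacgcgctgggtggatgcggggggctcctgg
The window holds 3 matches, with first bases at -183, -179 and -168 from the start site, the first overlapping the second. Of 32851 promoter windows of this length, 2.26% hold such a match, a share not matched for base content. The Mycn window is 56.7% G and C, against a median of 52.7% over all windows. None of the other 6 windows found for these genes, which belong to Ccnd3 (2 windows), Cdk4, Cdk6, Cdkn1b and E2f1, has one. The E2f1 window (chr2:154569377-154569676) lies inside the span of that gene, 154559407 to 154569892. The sequence before the annotated start of E2f1 was therefore not searched. A match is a description of the letters and not of binding.

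The D cyclins were carried by Ccnd3 in all lines. Cyclin D3 (Ccnd3, ENSMUSG00000034165; chromosome 17, 47505051 to 47599691, plus strand) is the D cyclin that pre-B cells depend on. Its libraries were at 1018 and 899 TPM in Abl.2, 2116 and 1859 TPM in Abl.3, and 1356 and 1257 TPM in Abl.4. The lines did not overlap, with Abl.3 highest and Abl.2 lowest. Abl.3 exceeded Abl.2 by 2.07 times in mean TPM, a log2 difference of -1.05 for Abl.2 minus Abl.3 (SE 0.10, limma adjusted p = 0.00052). Abl.3 exceeded Abl.4 by 1.52 times (log2 difference 0.60, SE 0.10, limma adjusted p = 0.0054). Abl.2 was below Abl.4 at -0.45 (SE 0.10, limma adjusted p = 0.017), a call that was lost with no filter on low values (adjusted p = 0.052), without Abl.2 replicate 2 (-0.36, adjusted p = 0.12) and without Abl.4 replicate 1 (-0.39, adjusted p = 0.078). The median difference of the 580 tested genes of chromosome 17 was -0.07, -0.05 and 0.02 for the 3 pairs, nearer to 0 than those of Ccnd3 in each pair. Ccnd3 shares 361 exon bases with Bysl on the other strand, which was at 14.3 to 29.6 TPM.

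Cyclin D2 (Ccnd2, ENSMUSG00000000184; chromosome 6, 127125162 to 127152193, minus strand), the D cyclin that answers to signals of the B cell and cytokine receptors, was lowest in Abl.2. It was at 89.1 and 88.9 TPM in Abl.2, 145 and 144 TPM in Abl.3, and 165 and 153 TPM in Abl.4. Abl.2 stood apart from the other lines, which lay between 144 and 165 TPM without overlap. Abl.2 was lower than Abl.3 at -0.69 (SE 0.073, limma adjusted p = 0.00072) and lower than Abl.4 at -0.83 (SE 0.073, limma adjusted p = 0.00035). Abl.3 minus Abl.4 was -0.13 (95% interval -0.31 to 0.04, limma adjusted p = 0.19). Both calls were kept under each alternative tried, while the uncalled difference of Abl.3 minus Abl.4 changed sign, to 0.02, on summed allelic counts.

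Cyclin D1 (Ccnd1, ENSMUSG00000070348; chromosome 7, 144929931 to 144939925, minus strand), the main D cyclin of many non-lymphoid tissues, was close to absent. It was at 0.33 and 0.39 TPM in Abl.2, 0.44 and 0.70 TPM in Abl.3, and 2.95 and 2.19 TPM in Abl.4. Since it passed the filter through Abl.4 alone, its differences of -1.38 (SE 0.21, Abl.2 minus Abl.4) and -1.18 (SE 0.21, Abl.3 minus Abl.4) are descriptions. At this level the size depends on the constant added before the logarithm: the difference of Abl.2 minus Abl.4 was -2.53 with 0.1 added and -0.50 with 5 added. An 1100-base stretch of exon is shared with LTO1 on the other strand, which was at 8.72 to 12.3 TPM, above Ccnd1 itself, and the reads of the 2 genes cannot be told apart where strand is not counted. Genes with the nearest pattern over the 6 libraries were Abtb2 at a distance of 0.18, Amigo1 at 0.22 and 2810021J22Rik at 0.24. They were picked for likeness to Ccnd1, so that they were highest in Abl.4 was fixed by the choice. Abtb2, at 0.62 and 0.57 TPM in Abl.2 and 0.85 and 1.21 TPM in Abl.3, also passed the filter through Abl.4 alone.

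As a share of the summed D cyclins, Ccnd3 made up 91.5% ± 0.68 (SD, n = 2) in Abl.2, with 93.2% ± 0.57 for Abl.3 and 89.0% ± 0.0018 for Abl.4. Ccnd2 made up 8.52% ± 0.67, 6.80% ± 0.56 and 10.8% ± 0.029 in the same order, and Ccnd1 at most 0.194% in any library. The sum of the D cyclins was 1048 ± 84.3 TPM in Abl.2, 2133 ± 182 in Abl.3 and 1468 ± 78.9 in Abl.4. The 3 lines did not overlap in this sum. With 2 libraries a line, no permutation test of such a share can pass 0.05, and none was made.

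Both kinases were highest in Abl.2 and lowest in Abl.4. Cdk4 (ENSMUSG00000006728; chromosome 10, 127063534 to 127067920, plus strand) was at 1037 and 1029.6 TPM in Abl.2, 764 and 759.6 TPM in Abl.3, and 702 and 676 TPM in Abl.4. Libraries of a line lay close together and the lines did not overlap. Abl.2 was higher than Abl.3 at 0.44 (SE 0.066, limma adjusted p = 0.0029) and higher than Abl.4 at 0.58 (SE 0.066, limma adjusted p = 0.0010), ratios of mean TPM of 1.36 and 1.499. On summed allelic counts with edgeR the first was 0.14 and not called (adjusted p = 0.21), and the second 0.29 (adjusted p = 0.023). Abl.3 minus Abl.4 was 0.15 (95% interval -0.01 to 0.30, limma adjusted p = 0.13). The difference of Abl.2 was shared by its chromosome: over 510 genes of chromosome 10 the median was 0.59 for Abl.2 minus Abl.3 and 0.44 for Abl.2 minus Abl.4, and -0.16 for Abl.3 minus Abl.4. Whether Cdk4 would differ apart from its chromosome was not tested.

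Cdk6 (ENSMUSG00000040274; chromosome 5, 3341485 to 3531008, plus strand), the CDK4 relative that is prominent in blood cells, was at 74.1 and 74.7 TPM in Abl.2, 52.8 and 53.9 TPM in Abl.3, and 31.0 and 34.9 TPM in Abl.4. No line overlapped another, and all 3 pairs were called. Abl.2 was higher than Abl.4 by 2.26 times in mean TPM (log2 difference 1.15, SE 0.088, limma adjusted p = 0.00019). Abl.3 was higher than Abl.4 by 1.62 times (0.68, SE 0.088, limma adjusted p = 0.0019). Abl.2 was higher than Abl.3 by 1.39 times (0.47, SE 0.088, limma adjusted p = 0.0071), and without Abl.2 replicate 2 the adjusted p of this pair was 0.0505 at a difference of 0.47. Over 694 genes of chromosome 5 the median difference was 0.00, -0.01 and -0.04 for Abl.2 minus Abl.3, Abl.2 minus Abl.4 and Abl.3 minus Abl.4. As a share of Cdk4 and Cdk6 together, Cdk6 made up 6.72% ± 0.070 (SD, n = 2) in Abl.2, with 6.55% ± 0.12 for Abl.3 and 4.57% ± 0.49 for Abl.4. The sum of both kinases was 1108 ± 4.71, 815 ± 2.49 and 722 ± 16.0 TPM.

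The promoter windows of the kinases are shown because Cdk4 is a known target of MYC, and the levels of both kinases differed between the lines. They are from RefSeq (GRCm38.p6, plus strand; Cdk4 chr10:127063285-127063584, Cdk6 chr5:3343643-3343942), and the capitals mark the E-box CACGTG that MYC with MAX binds, which reads the same on both strands.
Cdk4: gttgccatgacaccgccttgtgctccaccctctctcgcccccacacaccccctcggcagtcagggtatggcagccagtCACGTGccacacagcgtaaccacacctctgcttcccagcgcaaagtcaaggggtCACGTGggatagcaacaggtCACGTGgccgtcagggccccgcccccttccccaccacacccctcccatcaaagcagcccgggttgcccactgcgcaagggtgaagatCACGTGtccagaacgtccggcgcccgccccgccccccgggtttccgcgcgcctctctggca
Cdk6: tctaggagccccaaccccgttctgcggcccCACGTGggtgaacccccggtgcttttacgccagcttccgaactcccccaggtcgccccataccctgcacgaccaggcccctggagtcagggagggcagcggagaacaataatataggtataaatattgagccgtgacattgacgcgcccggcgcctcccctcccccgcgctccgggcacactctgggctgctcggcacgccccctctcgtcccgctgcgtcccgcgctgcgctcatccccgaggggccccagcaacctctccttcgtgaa
Cdk4 has 4 E-boxes, with first bases at -172, -118, -98 and -11 from the start site, and Cdk6 has 1, at -220. The Cdk6 window lies inside the span of that gene, 3341485 to 3531008, so its start site is not the annotated start. The sequence before the annotated start of Cdk6 was not searched. Of the 32851 promoter windows 7.15% hold at least 1, and no other window found for these genes does. The windows of Cdk4 and Cdk6 are 67% and 66.7% G and C, against a median of 52.7% over all windows. The 7.15% is thus not matched for base content. An E-box here is a description of the letters and not of binding, and its part in the levels was not tested.

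Cdkn1b (ENSMUSG00000003031; chromosome 6, 134920401 to 134925513, plus strand) was scarce beside Ccnd2, Ccnd3 and the kinases. It was at 3.35 and 3.44 TPM in Abl.2, 3.52 and 5.15 TPM in Abl.3, and 5.58 and 5.29 TPM in Abl.4. Abl.2 was lowest and Abl.4 highest in every library, though the libraries of Abl.3 spread over nearly that whole range. Abl.2 minus Abl.4 was -0.55 (95% interval -0.98 to -0.12, limma adjusted p = 0.058), and it was called without Abl.3 replicate 1 (adjusted p = 0.039) or without Abl.3 replicate 2 (adjusted p = 0.042), at the same difference. The other pairs were at -0.26 (95% interval -0.69 to 0.17, Abl.2 minus Abl.3) and -0.29 (95% interval -0.72 to 0.14, Abl.3 minus Abl.4). Without Abl.3 replicate 1 these were -0.48 and -0.065, and without Abl.3 replicate 2 they were -0.041 and -0.51.

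Rb1 (ENSMUSG00000022105; chromosome 14, 73183673 to 73325822, minus strand) was higher in Abl.4 but with wide error. Its libraries were at 17.6 and 20.5 TPM in Abl.2, 21.5 and 15.9 TPM in Abl.3, and 32.9 and 54.1 TPM in Abl.4. Abl.2 and Abl.3 overlapped, and the libraries of Abl.4 lay above both while standing apart from each other. Abl.2 minus Abl.4 was -1.11 (SE 0.25, limma adjusted p = 0.016) and Abl.3 minus Abl.4 was -1.15 (SE 0.25, limma adjusted p = 0.013). Without Abl.4 replicate 2 the differences were -0.76 (adjusted p = 0.063) and -0.80 (adjusted p = 0.053), and neither was called. The first was also lost with no filter on low values (adjusted p = 0.052) and without Abl.2 replicate 1 (-1.01, adjusted p = 0.095) or 2 (-1.22, adjusted p = 0.059), and the second without Abl.3 replicate 2 (-0.94, adjusted p = 0.084). On summed allelic counts with edgeR, both were called, with Abl.2 minus Abl.4 at -0.73 (adjusted p = 0.0040) and Abl.3 minus Abl.4 at -0.83 (adjusted p = 0.0020). Abl.2 minus Abl.3 was 0.03 by limma (95% interval -0.57 to 0.63). Rb1 shares 488 exon bases with Rcbtb2 and 408 with Lpar6, both on the other strand.

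E2f1 (ENSMUSG00000027490; chromosome 2, 154559407 to 154569892, minus strand), the factor that RB1 holds in check, was at 57.1 and 55.3 TPM in Abl.2, 64.6 and 54.95 TPM in Abl.3, and 73.8 and 59.9 TPM in Abl.4. Abl.3 overlapped each of the other lines, and both libraries of Abl.4 lay above both of Abl.2. The differences were -0.08 (95% interval -0.39 to 0.22) for Abl.2 minus Abl.3, -0.24 (95% interval -0.55 to 0.07) for Abl.2 minus Abl.4 and -0.16 (95% interval -0.46 to 0.15) for Abl.3 minus Abl.4. None was called by limma, with adjusted p of 0.64, 0.20 and 0.37.

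The alleles of 6 of these genes could be tested with edgeR's quasi-likelihood test, on at least 20 allelic counts in every library. The maternal share is the maternal count over the count of both alleles, with 0.5 for equal output. Ccnd1 had 18 to 89 counts a library and was not tested. In Abl.2, 3 of the 6 had unequal alleles, 0 with the maternal and 3 with the paternal allele higher (Ccnd2, Cdk4 and Cdk6), where 25.3% and 22.4% of 8480 autosomal genes were called in those directions. DESeq2 also gave 0 and 3, and an unadjusted edgeR p under 0.05 gave 0 and 4. In Abl.3, 5 were called, 1 maternal (Cdk4) and 4 paternal (Mycn, Ccnd2, Cdk6 and E2f1), beside 20.4% and 23.2%. There DESeq2 gave 1 and 3. In Abl.4, 3 were called, 1 maternal (Cdk4) and 2 paternal (Mycn and Cdk6), beside 19.7% and 18.6%, and DESeq2 also gave 1 and 2.

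**Figure D3:**
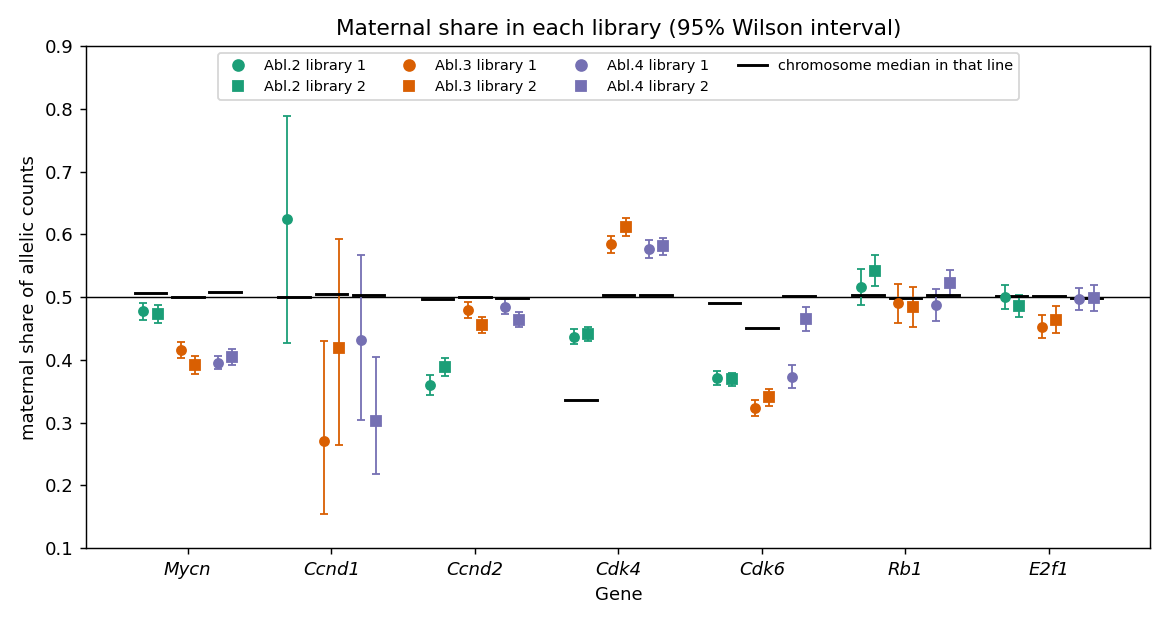
Maternal share of the allelic counts in each library (points; bars: 95% Wilson interval, counting error only), with the median share of the gene's chromosome in that line as a black line, for libraries with at least 20 counts. Cdk4 is below 0.5 in Abl.2 and above it in Abl.3 and Abl.4, and its chromosome median moves from 0.337 in Abl.2 to 0.503 and 0.504.

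The higher allele of Cdk4 was not the same in all lines. Its maternal share was 0.437 and 0.441 in Abl.2, from 6836 and 7385 counts. It was 0.584 and 0.611 in Abl.3 and 0.576 and 0.581 in Abl.4, from 4623 to 5194 counts. Abl.2 lay below 0.5 and both other lines above it, with no overlap. The log2 allele ratio of Abl.2 minus that of Abl.3 was -0.93 (SE 0.080, edgeR adjusted p = 4.2e-06), and minus that of Abl.4 it was -0.81 (SE 0.080, edgeR adjusted p = 1.6e-05). Across chromosome 10 431 genes had a median share of 0.337 in Abl.2, against 0.503 in Abl.3 and 0.504 in Abl.4, and the 54 genes within 5 Mb of Cdk4 had medians of 0.339, 0.4999 and 0.509. Against its chromosome, Cdk4 was thus 0.102, 0.095 and 0.075 more maternal in the 3 lines, while the chromosome's median log2 allele ratio differed by -0.99 and -0.98 for the same pairs. Tspan31, which shares 641 exon bases with Cdk4 on the other strand and was at 208 to 311 TPM, had shares of 0.434 ± 0.0097, 0.575 ± 0.0067 and 0.581 ± 0.011 (SD, n = 2), and reads of the shared exon cannot be told apart without strand.

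Multiplying TPM by the allele shares gives a level per allele, which assumes that the SNP positions stand for the whole gene. By this measure the maternal allele of Cdk4 was at 453 ± 1.02 TPM (SD, n = 2) in Abl.2, and at 455 ± 12.7 and 399 ± 8.73 TPM for Abl.3 and Abl.4. The paternal allele was at 580 ± 6.19, 307 ± 16.0 and 290 ± 10.1 TPM. Against Abl.3 the excess of Abl.2 lay in the paternal allele, since the maternal levels of these lines overlapped, and against Abl.4 both alleles were higher in Abl.2. This is a description, with no test.

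Cdk6 leaned to the paternal allele in every line. Shares of 0.371 and 0.369 in Abl.2 and of 0.323 and 0.340 in Abl.3 were maternal. In Abl.4 the libraries were at 0.373 (95% Wilson interval 0.355 to 0.391, 2730 counts) and 0.466 (0.447 to 0.485, 2652 counts), so they differed by more than counting error. The imbalance was called by edgeR in all lines, with adjusted p of 6.4e-05, 1.7e-05 and 0.0048. In Abl.4 it was lost without Abl.4 replicate 1, where the log2 allele ratio went from -0.47 to -0.20 (adjusted p = 0.092). Abl.3 differed from Abl.4 at -0.54 (SE 0.15, edgeR adjusted p = 0.030). That call did not hold without Abl.3 replicate 1 (-0.48, adjusted p = 0.18), without Abl.3 replicate 2 (-0.59, adjusted p = 0.095) or without Abl.4 replicate 2 (-0.26, adjusted p = 0.11). The differences of Abl.2 from Abl.3, at 0.24 (SE 0.14, edgeR adjusted p = 0.26), and from Abl.4, at -0.29 (SE 0.14, edgeR adjusted p = 0.22), were not called, but the first was called without Abl.4 replicate 1 (adjusted p = 0.030) or 2 (adjusted p = 0.030), and the second without Abl.4 replicate 1 (-0.57, adjusted p = 0.0010). The median share of chromosome 5 was 0.490, 0.451 and 0.502 over 599 genes, and Cdk6 lay -0.120, -0.119 and -0.082 from it. Per allele, the maternal allele of Cdk6 was at 27.5 ± 0.075, 17.7 ± 0.90 and 13.9 ± 3.33 TPM and the paternal at 46.9 ± 0.38, 35.7 ± 0.11 and 19.04 ± 0.54 TPM (SD, n = 2), so both alleles had the order of the total.

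Ccnd2 had unequal alleles mainly in Abl.2, the line where its level was lowest. Its maternal share was 0.360 and 0.389 in Abl.2, 0.479 and 0.455 in Abl.3, and 0.485 and 0.464 in Abl.4, from 3507 to 6122 counts. Abl.2 lay below both other lines, which overlapped. The imbalance of Abl.2 was a log2 allele ratio of -0.74 (SE 0.067, edgeR adjusted p = 4.3e-06). The ratio of Abl.2 differed from that of Abl.3 at -0.55 (SE 0.092, edgeR adjusted p = 0.00088) and from that of Abl.4 at -0.59 (SE 0.092, edgeR adjusted p = 0.00062). In Abl.3 the imbalance was -0.19 (edgeR adjusted p = 0.036) and was lost with DESeq2 (adjusted p = 0.086), with the library number as a block (adjusted p = 0.0502) and without Abl.3 replicate 1 (-0.26, adjusted p = 0.062) or 2 (-0.12, adjusted p = 0.36). The median share of chromosome 6 was 0.497, 0.5004 and 0.498 over 378 genes, so the share of Ccnd2 in Abl.2 lay -0.122 from its chromosome. Per allele, the maternal level was 33.3 ± 1.76, 67.6 ± 2.70 and 75.4 ± 6.16 TPM and the paternal 55.6 ± 1.89, 77.0 ± 2.20 and 83.4 ± 1.95 TPM (SD, n = 2), so both alleles were lowest in Abl.2.

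Mycn leaned to the paternal allele in Abl.3 and Abl.4. Its maternal share was 0.477 and 0.473 in Abl.2, 0.416 and 0.392 in Abl.3, and 0.396 and 0.405 in Abl.4, from 4600 to 7856 counts. Abl.2 was nearest to equal output and did not overlap with the other lines. The log2 allele ratio was -0.56 (SE 0.056, edgeR adjusted p = 1.6e-05) in Abl.3 and -0.58 (SE 0.054, edgeR adjusted p = 1.1e-05) in Abl.4. In Abl.2 it was -0.14 (SE 0.056, edgeR adjusted p = 0.057), and it was called with offsets from the allele totals (-0.26, adjusted p = 0.0025) and without Abl.3 replicate 2 (adjusted p = 0.049). The ratio of Abl.2 was above that of Abl.3 by 0.42 (SE 0.079, edgeR adjusted p = 0.0019) and above that of Abl.4 by 0.44 (SE 0.078, edgeR adjusted p = 0.0014). The median share of chromosome 12 was 0.507, 0.5005 and 0.507 over 310 genes. Per allele, Mycn was at 29.7 ± 3.19, 31.9 ± 3.64 and 46.5 ± 5.64 TPM from the maternal and 32.8 ± 3.15, 46.9 ± 2.101 and 69.8 ± 10.3 TPM from the paternal allele (SD, n = 2). The maternal levels of Abl.2 and Abl.3 overlapped, and the paternal ones did not.

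Rb1 and E2f1 had nearly equal alleles. The maternal share of Rb1 was 0.529 ± 0.018, 0.487 ± 0.0039 and 0.505 ± 0.025 in Abl.2, Abl.3 and Abl.4 (SD, n = 2), from 939 to 2191 counts, with no call. The higher level of Rb1 in Abl.4 thus came with 22.2 ± 8.65 TPM from the maternal and 21.3 ± 6.30 TPM from the paternal allele. Rcbtb2 and Lpar6 share exon bases with Rb1 on the other strand. Mean shares in the order Abl.2, Abl.3 and Abl.4 were 0.670, 0.612 and 0.573 for Rcbtb2 and 0.571, 0.534 and 0.496 for Lpar6. Reads of the shared exons cannot be told apart without strand. E2f1 was at 0.493 ± 0.011, 0.458 ± 0.0081 and 0.498 ± 0.00077, from 2139 to 3122 counts, and was called in Abl.3 alone (log2 allele ratio -0.24, SE 0.073, edgeR adjusted p = 0.021). That call was lost without Abl.3 replicate 1 (-0.21, adjusted p = 0.18) or 2 (-0.27, adjusted p = 0.075). No difference between lines was called for either gene. For Ccnd1, 1 library of Abl.2 had at least 20 counts, with a share of 0.625 (95% Wilson interval 0.427 to 0.788, 24 counts). The single libraries of Abl.3 and Abl.4 ranged from 0.270 to 0.431, and the widest 95% Wilson interval among these ran from 0.264 to 0.592.

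Across the pairs of lines, 3 of the 6 testable genes differed in allele ratio between Abl.2 and Abl.3, where 26.6% of autosomal genes did. The same genes, Mycn, Ccnd2 and Cdk4, differed between Abl.2 and Abl.4, beside 22.8%, and 1, Cdk6, between Abl.3 and Abl.4, beside 14.3%. In the authors' deposited table of maternal fractions, the interval excluded 0.5 for Cdk4 in each line, with 0.44 (0.40 to 0.47) in Abl.2, 0.60 (0.55 to 0.64) in Abl.3 and 0.58 (0.53 to 0.63) in Abl.4. The authors' deposited table gives Cdk6 in Abl.4 as 0.42 (0.35 to 0.49) and, for Abl.3, E2f1 as 0.46 (0.39 to 0.52) and Ccnd2 as 0.47 (0.43 to 0.51). The last pair of intervals hold 0.5, although edgeR called both imbalances in Abl.3.

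**Figure D4:**
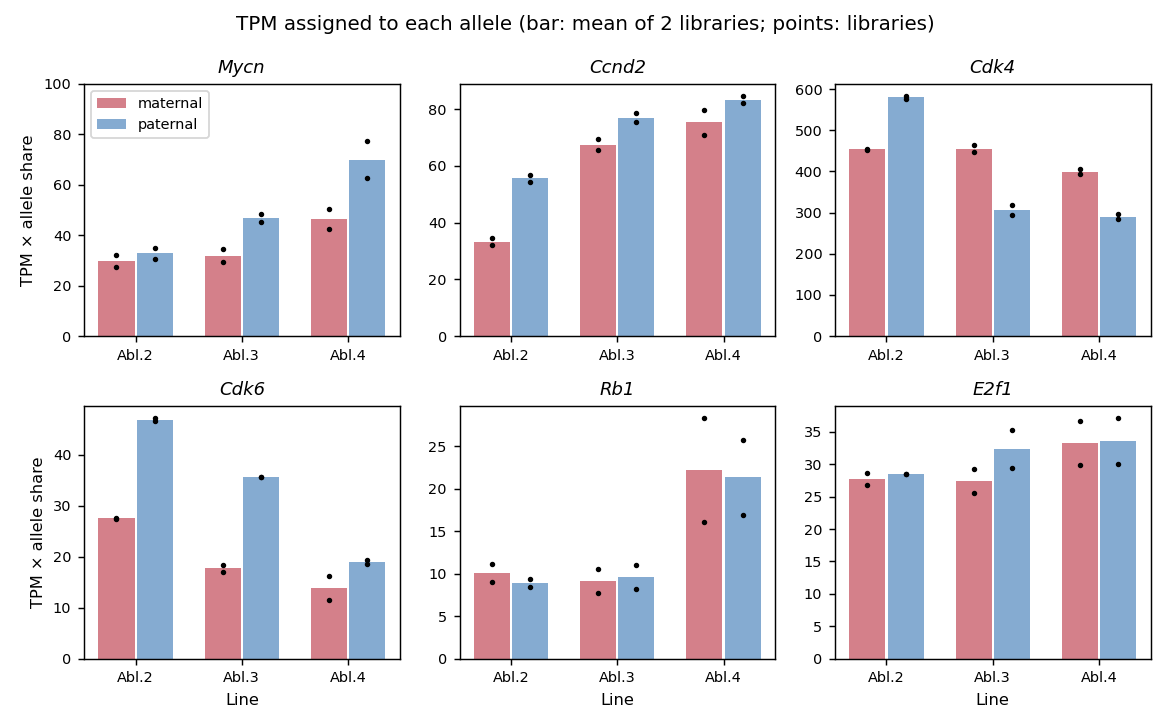
TPM multiplied by the share of each allele, for the 6 genes with enough counts in every library (bars: mean of 2 libraries; points: libraries; axes start at 0). The paternal allele of Cdk4 stands at 580 TPM in Abl.2 against 307 and 290 TPM, while its maternal allele lies between 399 and 455 TPM.

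The wider network was read from 5 lists of genes, beside the percentages of all genes given above for each pair and the medians of all genes of 0.10, -0.03 and -0.15. In the MYC network (partners and antagonists of MYC, 11 of 12 tested), 4 were higher and 2 lower in Abl.2 than in Abl.3, 1 and 1 against Abl.4, and 1 higher and 5 lower in Abl.3 than in Abl.4. The median differences were 0.15, -0.10 and -0.23. After quantile normalisation they turned to -0.03 for the first pair and 0.08 for the last. The calls of the last pair were then 3 higher and 4 lower, beside 17.3% and 16% of all genes. With a block on library number that pair had 2 higher and 5 lower, beside 14.7% and 32.4%. Mxd1, which competes with MYC for MAX, was at 12.0 and 10.9 TPM in Abl.2, 2.24 and 2.82 TPM in Abl.3, and 6.75 and 5.55 TPM in Abl.4, a difference of 1.83 for Abl.2 minus Abl.3 (SE 0.16, limma adjusted p = 0.00032) and 0.81 for Abl.2 minus Abl.4 (SE 0.16, limma adjusted p = 0.0094). Mxi1, of the same family, was at 19.6 and 20.9 TPM in Abl.4 against 8.52 to 10.0 TPM elsewhere, so that Abl.3 minus Abl.4 was -1.12 (SE 0.11, limma adjusted p = 0.00055) and Abl.2 minus Abl.4 -0.97 (SE 0.11, limma adjusted p = 0.00090). Mxd3 was highest in Abl.3, at 118 and 111 TPM against 76.2 to 91.2 TPM, with -0.54 for Abl.2 minus Abl.3 (limma adjusted p = 0.0041) and 0.40 for Abl.3 minus Abl.4 (limma adjusted p = 0.013).

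Of 27 other regulators of G1 and of entry into S phase, Cdkn1c (0.12 and 0.07, 0.58 and 0.95, and 3.12 and 1.30 TPM in Abl.2, Abl.3 and Abl.4) passed the filter through Abl.4 alone and is not counted. Among the other 26, 4 were higher and 9 lower in Abl.2 than in Abl.3, 5 and 13 against Abl.4, and 5 higher and 8 lower in Abl.3 than in Abl.4, with medians of -0.18, -0.31 and -0.15. Over the same 26, quantile normalisation gave 3 higher and 12 lower for the first pair (median -0.33), beside 18.8% and 17.8% of all genes, and 6 higher and 5 lower for the last. Summed allelic counts gave 5 and 3 of 22 for the last pair by edgeR, beside 17.4% and 19.9%. A block on library number gave 5 higher and 10 lower of the 26 for the first pair, beside 30.3% and 17%. It gave 5 and 14 for Abl.2 against Abl.4, beside 19.2% and 22.7%, and 6 and 8 for the last pair, beside 14.7% and 32.4%. Cdkn2c, which encodes the CDK4 and CDK6 inhibitor p18, was at 60.7 and 56.5 TPM in Abl.2 against 140 to 157 TPM in the other lines, without overlap. Its differences were -1.30 (SE 0.087, limma adjusted p = 0.00011) and -1.33 (SE 0.087, limma adjusted p = 0.00011). Cdkn2b, which encodes another inhibitor of those kinases, p15, was at 26.9 and 25.3 TPM in Abl.2, 31.6 and 27.1 TPM in Abl.3, and 4.34 and 5.40 TPM in Abl.4. Abl.4 was lower than both, with differences of 2.21 (SE 0.14, limma adjusted p = 7.9e-05) and 2.37 (SE 0.14, limma adjusted p = 7.0e-05). Rbl2, the RB relative p130, was higher in Abl.2 than in Abl.3 at 0.73 (SE 0.12, limma adjusted p = 0.0050), at 21.3 and 18.3 against 11.01 and 12.2 TPM. Tfdp2, a binding partner of E2F factors, was lower in Abl.3 than in Abl.4 at -0.97 (SE 0.12, limma adjusted p = 0.0018), at 8.40 and 9.29 against 17.0 and 19.5 TPM.

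The MYC targets (20 genes of ribosome production and metabolism) had a median of 0.31 for Abl.2 minus Abl.4, and in that pair 10 were called higher in Abl.2 and 1 lower. Against Abl.3, 3 were higher and 1 lower in Abl.2 (median 0.12), and 7 were higher and 0 lower in Abl.3 than in Abl.4 by limma (median 0.05; 8 and 0 at an unadjusted p under 0.05, and 7 and 0 of 16 on summed allelic counts with edgeR, beside 17.4% and 19.9% of all genes tested that way). The median against Abl.3 turned to -0.09 on summed allelic counts. That against Abl.4 was 0.31 after quantile normalisation and 0.44 on summed allelic counts. Blocking on library number gave 4 higher and 1 lower in Abl.2 than in Abl.3, beside 30.3% and 17% of all genes. Srm was called in that pair with the block (0.30, limma adjusted p = 0.013). The block gave 11 and 1 against Abl.4, beside 19.2% and 22.7%. Between Abl.3 and Abl.4 it gave 8 and 0, beside 14.7% and 32.4%. Cad, an enzyme of pyrimidine synthesis, was at 107 and 98.9 TPM in Abl.2 against 59.8 and 48.8 TPM in Abl.3, a difference of 0.92 (SE 0.11, limma adjusted p = 0.0015). Srm, spermidine synthase, was at 410.1 and 389 TPM in Abl.2 against 244 and 203 TPM in Abl.4, a difference of 0.84 (SE 0.11, limma adjusted p = 0.0020). Nme2, a nucleoside diphosphate kinase, was higher in Abl.3 than in Abl.4 at 0.61 (SE 0.097, limma adjusted p = 0.0043). Ldha, lactate dehydrogenase A, went the other way: it was at 2465 and 2371 TPM in Abl.2, 4463 and 3973 TPM in Abl.3, and 4256 and 3855 TPM in Abl.4, with differences of -0.80 and -0.74 for the pairs with Abl.2 (limma adjusted p = 0.0011 and 0.0016).

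Of 20 E2F targets, 2 were higher and 5 lower in Abl.2 than in Abl.3, 1 and 7 against Abl.4, and 1 higher and 2 lower in Abl.3 than in Abl.4, with medians of -0.10, -0.22 and -0.09, the last of which turned to 0.05 on summed allelic counts. For the first pair, summed allelic counts gave 1 higher and 8 lower of 18 by edgeR (median -0.25), beside 22.1% and 20% of all genes tested that way. Against Abl.4, quantile normalisation gave 1 and 10 of the 20, beside 18.3% and 16.4%. With the library number as a block, limma called 1 higher and 12 lower for that pair, beside 19.2% and 22.7%. It called 1 and 5 between Abl.3 and Abl.4, beside 14.7% and 32.4%, and 2 and 6 between Abl.2 and Abl.3, beside 30.3% and 17%. Rrm2, a subunit of ribonucleotide reductase, was at 265 and 288 TPM in Abl.2 and at 599.7 to 703 TPM in the other lines, with differences of -1.13 (SE 0.082, limma adjusted p = 0.00015) and -1.27 (SE 0.082, limma adjusted p = 9.9e-05). Cdk1, the kinase of mitotic entry, was higher in Abl.2, at 695 and 789 TPM against 501 to 522 TPM, by 0.55 and 0.51 (SE 0.082, limma adjusted p = 0.0030 and 0.0043). Cdk1 lies on chromosome 10, whose medians for these pairs were 0.59 and 0.44. Tyms (0.35, limma adjusted p = 0.029) and Mcm4 (-0.38, limma adjusted p = 0.0095) were the called genes of this list that differed most in either direction for Abl.3 minus Abl.4.

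Of 10 genes of the G2 and M phases, 0 were called in either direction by limma between Abl.2 and Abl.3, where the differences ran from -0.20 to 0.12 and 1 was lower in Abl.2 at an unadjusted p under 0.05. On summed allelic counts with edgeR, 5 of 9 were called lower in Abl.2 in that pair, where 20% of 8702 genes were. In Abl.2, 1 was higher and 3 were lower than in Abl.4, and in Abl.3, 1 was higher and 2 were lower. With the library number as a block, 0 were higher and 2 lower between Abl.2 and Abl.3, beside 30.3% and 17% of all genes. Top2a was called in that pair (-0.19, limma adjusted p = 0.049). The block gave 1 higher and 5 lower between Abl.2 and Abl.4, beside 19.2% and 22.7%. Between Abl.3 and Abl.4 it gave 2 higher and 4 lower, beside 14.7% and 32.4%. Cdc20, an activator of the anaphase-promoting complex, was lowest in Abl.4, at 309 and 275 TPM against 364 to 389 TPM, by 0.36 and 0.37 (SE 0.087, limma adjusted p = 0.0201 and 0.018). Top2a, topoisomerase II alpha, was lower in Abl.2 than in Abl.4 at -0.51 (SE 0.093, limma adjusted p = 0.0071), and Mki67, a proliferation antigen, lower in Abl.3 than in Abl.4 at -0.51 (SE 0.13, limma adjusted p = 0.024).

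**Figure D5:**
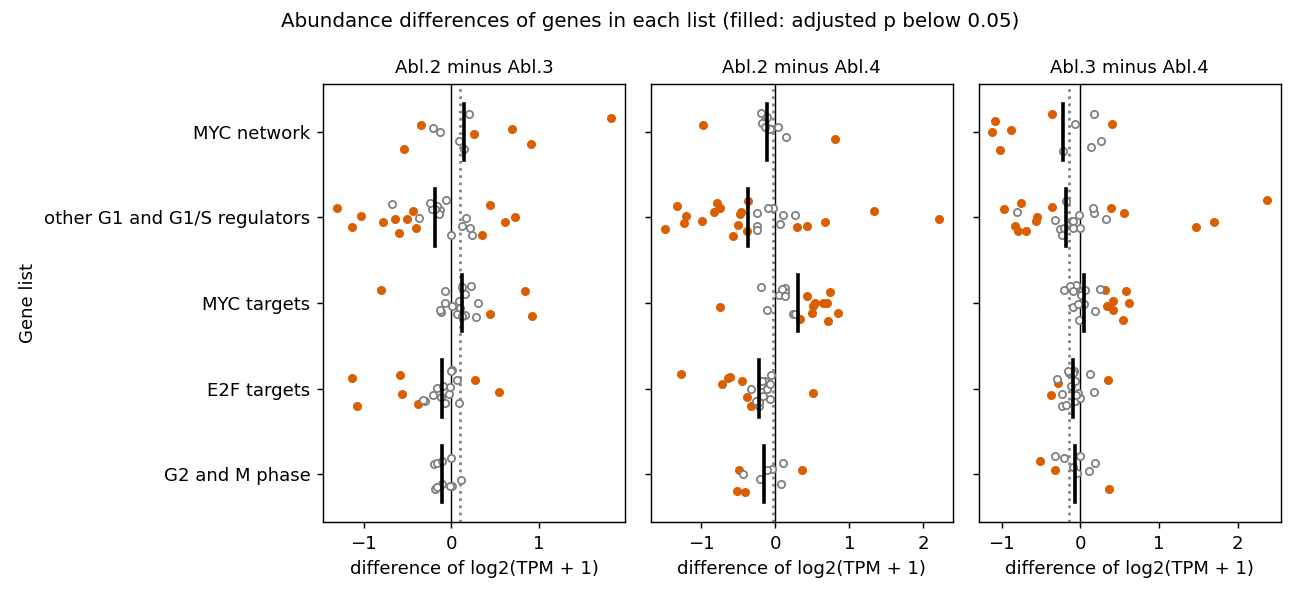
Difference of log2(TPM + 1) for the tested genes of each list in the 3 pairs of lines (points; filled: adjusted p below 0.05; black bars: median of the list; dotted line: median of all tested genes). The MYC targets have a median of 0.31 for Abl.2 minus Abl.4, and the other G1 regulators spread from -1.33 to 2.21 in that pair, leaving out Cdkn1c, the lowest point, which passed the filter through Abl.4 alone.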

How the data were processed

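Of the deposited tables, 1 gives allelic counts (whole numbers per gene and parental allele, read at SNP positions), 1 gives TPM obtained with DESeq2, and 1 gives the authors' maternal fraction for every line with its limits, all per the file headers. The submitters' processing notes name STAR 2.5.4a, SAMtools, GATK and DESeq2 and the builds GRCh37, GRCm38 and mm10, with no role for each. Whether counting used strand is not given in the sources used here. All 10 genes have the same coordinates in GENCODE M21, as do 98.2% of 35412 genes.

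The genes and gene lists were chosen with earlier results of these data known. For abundance, limma 3.58.1 in R 4.3.3 (lmFit, trended eBayes) was run on log2(TPM + 1) of all 6 libraries and of 11003 genes that averaged 1 TPM or more, a scale that understates the change of low genes. For alleles, edgeR 4.0.16 (quasi-likelihood, 1 intercept a library, 1 allele effect a line, the same library size for either allele) was run on 8702 autosomal and X genes with 20 or more counts in each library, 8480 of them autosomal. The SE of an allele ratio is the log2 ratio over the square root of F. Benjamini-Hochberg adjustment was over all genes of a test. All 10 members are named, and from each list the called genes with the largest difference in either direction per pair, at a mean of 5 TPM or more. Wilson intervals (95%) describe counting error in 1 library, where reads carry no molecular identifiers and may repeat a molecule, and the depth behind TPM is unknown. Of the 10 genes, 6 have a promoter in the RefSeq table. The tests were run on simulated data with 200 genes changed by a log2 of 1 in Abl.2 alone. For abundance, 76.5% (against Abl.3) and 77% (against Abl.4) of these were recovered. For allelic differences 79% and 84% were. The simulation had far fewer changed genes than were called here and no shifted medians, so it does not check the calls under such shifts. Same-numbered libraries deviated together across lines (correlations of 0.10, 0.19 and 0.16 over 11003 genes for the 3 pairs of lines). A fit with the library number as a block is therefore given where it changes a call of the 10 genes or a count of a gene list. The labels number the library preparations and name no preparation shared across lines. Alternatives were pseudocounts of 0.1 and 5, no filter, quantile normalisation, summed allelic counts, coverage minimums of 10 and 50, DESeq2 1.42.0, offsets from allele totals, a replicate block and leaving out each library.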

Additional observations from a re-analysis of the deposited data

Results flagged for a closer look

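A test of the difference itself set lines apart in the allele ratio of 4 genes. By edgeR's quasi-likelihood test, Cdk4 had a log2 allele ratio in Abl.2 that lay -0.93 from that in Abl.3 and -0.81 from that in Abl.4. That of Mycn differed by 0.42 and 0.44 and that of Ccnd2 by -0.55 and -0.59 for the same pairs. That of Cdk6 differed by -0.54 between Abl.3 and Abl.4, a call lost without Abl.3 replicate 1 (-0.48, adjusted p = 0.18), Abl.3 replicate 2 (-0.59, adjusted p = 0.095) or Abl.4 replicate 2 (-0.26, adjusted p = 0.11). The median of chromosome 10, where Cdk4 lies, differed by -0.99 and -0.98 for its 2 pairs. On chromosomes 12 and 6, where Mycn and Ccnd2 lie, the medians were 0.02 and 0.02, and -0.01 and -0.01. On chromosome 5, where Cdk6 lies, the median was -0.31 for Abl.3 minus Abl.4. Their part in the differences was not tested.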

How the results depend on the processing

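Among values for single genes, 157 of 168 abundance values kept direction and side of the threshold under other settings. When 1 library was left out, 156 of 174 did. Both tallies include Ccnd1, which passed the filter through Abl.4 alone and whose values were all among those kept. Its part in them is a description only. For imbalance the tallies were 86 of 90 and 100 of 108, and for allelic differences 89 of 90 and 97 of 108. Leaving out a library gave 2529 to 4565 genes called between Abl.2 and Abl.3 (4382 with all), 2040 to 3269 between Abl.2 and Abl.4 (3682) and 2336 to 3659 between Abl.3 and Abl.4 (4194), lowest without Abl.2 replicate 2, Abl.2 replicate 1 and Abl.3 replicate 1 in that order. Members called went to 3 to 5 (abundance, Abl.3 against Abl.4, with Ccnd1 counted where it passed the filter, as it did not without an Abl.4 library; 3 also on summed allelic counts, where Ccnd1 has too few counts and Myc, Ccnd3 and Cdkn1b were not analysed; 2 to 4 without Ccnd1), 3 to 5 (imbalance in Abl.3) and 0 to 1 (difference of Abl.3 and Abl.4). Signs turned only for uncalled values: Rb1, Abl.2 minus Abl.3 (-0.145 by quantile normalisation; -0.174 to 0.2397 with libraries left out); Ccnd2 (0.0155, summed counts) and Cdkn1b (0.0171, quantile), Abl.3 minus Abl.4; E2f1, Abl.2 minus Abl.3 (-0.198 to 0.0309). For alleles these were E2f1 in Abl.2 (-0.0845 to 0.00442) and Abl.4 (0.00337 with offsets), Rb1 in Abl.4 (-0.0724 to 0.133), and the differences of E2f1, Abl.2 minus Abl.4 (-0.0728 to 0.0161), Mycn (-0.00427 with offsets; -0.0481 to 0.0941) and Ccnd2 (-0.111 to 0.0286), Abl.3 minus Abl.4. Offsets moved the share of calls with the maternal allele higher in Abl.2 from 53.0% to 40.0%, and of differences higher in Abl.2 from 59.6% to 48.0% (Abl.3) and 56.9% to 43.0% (Abl.4). The causes were not tested.

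With a replicate block 5213, 4608 and 5184 genes were called for abundance, and Myc (0.31) and Mycn (-0.33) were called between Abl.2 and Abl.3, while the imbalance of Ccnd2 in Abl.3 (-0.19) was not. The block changed no other call of these genes. With 2 libraries a line and 1 clone, differences between clones cannot be told apart from those of culture, nor from those of sex in the pairs with Abl.3.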
